A study of Saccharomyces cerevisiae with 8 samples.

Results

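Open chromatin at 180 min after beta-estradiol was compared with open chromatin at 0 min in the yeast strain coded 8. The material was 1 deposited ATAC-seq peak list per time. The lists are made of sub-peaks, each with a summit where Tn5 cuts pile up, and a called region can hold several. All 6588 sub-peaks of the 180 min list and all 6838 of the 0 min list on the 16 nuclear chromosomes were used, 13426 of the 27173 sub-peaks in the 4 lists analysed. A 180 min summit and a 0 min summit were matched where each was the other's nearest and they lay within 50 bp.

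The cells were haploid MATa Saccharomyces cerevisiae with an S288c background, and the series holds 8 samples in 4 groups of 2 experiments. Cells of the CEN4* strain, whose chromosome IV centromere sits between lox sites, were taken after 180 min in 1 uM beta-estradiol, when they are named cen4- because Cre recombinase has removed the centromere, and at 0 min with no treatment. CEN4 cells, in which lox sites do not flank that centromere, were taken at 180 min in 1 uM beta-estradiol and at 0 min with no treatment. The labels tie neither code 8 nor code 11 to CEN4 or CEN4*, and no strain was assigned to a code here. They do not name the promoter that drives Cre, and all samples are whole populations of cells. More copies or cells with an open site and more cuts per copy therefore cannot be told apart in any value given here.

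In yeast, gene starts usually lie beside a nucleosome-free stretch where transcription factors and remodellers act, and Tn5 cuts there far more often than in DNA wrapped on nucleosomes. Gene bodies are mostly wrapped and give weak signal unless nucleosomes are displaced, as at strongly transcribed genes. Yeast centromeres are short point centromeres that hold a single specialised nucleosome and the kinetochore, the complex that binds spindle microtubules. A chromosome without a centromere is not reliably passed to both daughter cells.

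The genome-wide background pileup recovered from the lists, a measure of depth, reached 439.2 at 180 min and 413.8 at 0 min in code 8. In code 11 it reached 512.2 at 180 min and 601.7 at 0 min. Read numbers are unknown. Each time is represented by a single list without replicates, so no test was made. Intervals are exact Clopper-Pearson 95% intervals for shares and 95% Poisson intervals for pileup ratios, and both cover counting error only. The limit given beside a count of 0 is 3 counts of the total and not a Clopper-Pearson limit. The MATa label was checked against promoters of mating-type genes. All 7 MATa-specific genes had a promoter summit, with levels of 2.20 to 6.44 times the genome-wide background at 180 min and 2.44 to 6.44 times at 0 min. Of 4 MATalpha-specific genes only STE3 had one, and of 7 meiotic genes only HOP1, at both times. STE3 had 2.19 at 180 min and 2.37 at 0 min, close to the lowest MATa-specific gene, ASG7. MF(ALPHA)2 and SPO13 had a called region at both times but no promoter summit. Of 6 haploid-specific genes 5 had a promoter summit, and STE4 had none.

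Summits were stable in position. Of the 180 min sub-peaks, 5998 (91.0%, interval 90.3 to 91.7%) had a 0 min partner, which is 87.7% of the 0 min sub-peaks (86.9 to 88.5%). Matched summits lay a median of 3 bp apart, 86.4% of them within 10 bp. The distance was 3 bp at promoters, taken as 400 bp upstream to 100 bp downstream of a protein-coding start, and 5 bp in gene bodies. The 568 summits at the identical base made up 9.47% of the pairs, and the median signed shift was 0 bp. Near the 50 bp limit, 26 matched pairs were 41 to 50 bp apart and 19 unmatched pairs were 51 to 60 bp apart, with relative pileups of 1.81 and 1.38 at 180 min and of 1.78 and 1.47 at 0 min.

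The remaining 590 sub-peaks of the 180 min list (8.96%, 8.28 to 9.67%) and 840 of the 0 min list (12.3%, 11.5 to 13.1%) had no partner. In code 11, 431 (6.48%) and 870 (12.3%) had none. Unmatched sub-peaks of code 8 were weak. Their median relative pileup, the summit pileup divided by the genome-wide background of its list, was 1.61 for 180 min only sub-peaks and 1.59 for 0 min only ones. Matched sub-peaks had 3.16 at 180 min and 3.23 at 0 min. Most unmatched summits lay in or beside a region of the other list. Of the 180 min only summits, 44.1% lay inside a region of the 0 min list and another 27.3% in a region that touched one, and only 28.6% were in regions with no overlap. The shares for 0 min only summits were 44.4%, 30.2% and 25.4%.

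The strongest unmatched sub-peaks had a summit of the other list a short way off. The 8 strongest of the 180 min list had a 0 min summit 66 to 305 bp away, and the 8 strongest of the 0 min list had a 180 min summit 56 to 248 bp away, in each case inside the same region. At SUR7, which encodes a protein of plasma membrane eisosome patches, the 180 min summit at XIII 170175 had a relative pileup of 9.47. The nearest 0 min summit, in the same promoter, had 9.37 and lay 152 bp away. At IES6, which encodes a subunit of the INO80 remodeller, the 180 min summit had 10.2 and the nearest 0 min summit had 13.2, 305 bp away. The divergent promoter of LST8, a TOR complex subunit, and SIS1, an Hsp40 co-chaperone, is on both lists of strongest unmatched summits. Its summit had 7.26 at 180 min and 7.70 at 0 min, at positions 66 bp apart. At RPP2A, a ribosomal stalk protein gene, the nearest 180 min summit had 10.2, 153 bp from the 0 min summit at 9.28. At AMD2, an amidase gene, the 180 min summit had 5.49 and the nearest 0 min summit had 6.24, 80 bp away. At SUR7, IES6, RPP2A and AMD2 that nearest summit had a partner of its own. The unmatched summit there was thus an additional one in a region called at both times. At LST8 and SIS1 neither summit had a partner.

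Gene bodies held more of the unmatched than of the matched sub-peaks. They held 45.4% of the 180 min only sub-peaks (41.4 to 49.5%), 43.9% of the 0 min only ones (40.5 to 47.4%) and 17.0% of the matched ones (16.0 to 17.9%). Promoters held 41.7%, 41.5% and 63.8%. Unmatched gene-body summits were fewest in the middle of 3 equal parts of a gene. On the 15 chromosomes other than IV, 61, 46 and 60 of the 180 min only summits lay in the first, middle and last part. For 0 min only summits the counts were 119, 84 and 142, and for matched summits 321, 220 and 332. The median position of the 180 min only summits there was 450 bp from the start, 54.1% of the way along the gene. It was 484 bp and 56.3% for 0 min only summits and 409 bp and 49.7% for matched ones.

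Chromosome IV differed from the rest in which unmatched sub-peaks it held. Of its 1038 sub-peaks at 180 min, 206 (19.8%, 17.5 to 22.4%) had no 0 min partner, against 384 of 5550 (6.92%) on the other 15 chromosomes, where single chromosomes ran from 4.32% on XV to 10.9% on VI. Of its 892 sub-peaks at 0 min, 60 (6.73%, 5.17 to 8.57%) had no 180 min partner, against 780 of 5946 elsewhere (13.1%), where the range was 9.17% on V to 17.3% on IX. Chromosome IV was thus highest in the first share and lowest in the second. Chromosome IV of code 11 had shares of 6.55% at 180 min and 11.3% at 0 min, against 6.47% and 12.4% on the other 15.

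**Figure D1:**
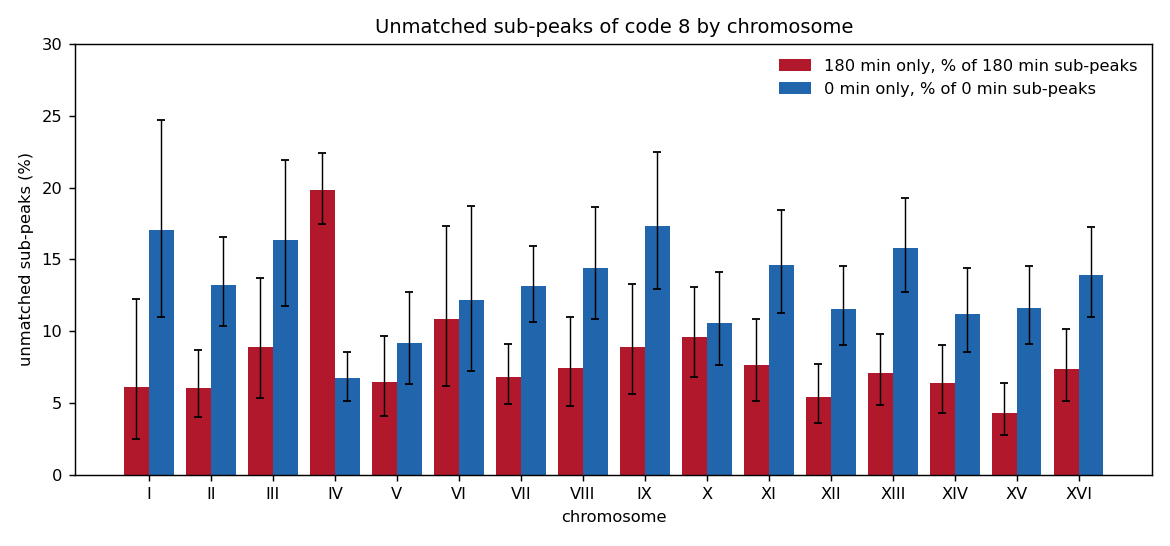
Share of sub-peaks without a partner on each chromosome of code 8, in percent: 180 min only sub-peaks of the 180 min list (red, left) and 0 min only sub-peaks of the 0 min list (blue, right). Black lines are exact 95% intervals for counting error. Chromosome IV has 19.8% and 6.73%, and on all the other 15 the blue bar is the taller.

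On chromosome IV, weak and genic sub-peaks were most often without a 0 min partner. The 180 min sub-peaks were split into 5 equal groups by relative pileup. In the lowest group (1.11 to 1.78), 131 of 204 on IV had no partner (64.2%, 57.2 to 70.8%), against 225 of 1114 elsewhere (20.2%). In the highest group the shares were 2.16% on IV and 0.736% elsewhere. Of the gene-body sub-peaks of IV at 180 min, 41.1% were 180 min only, against 16.1% on the other 15. For promoters the shares were 13.1% and 4.74%. The 0 min only shares ran the other way, at 14.1% on IV and 28.3% elsewhere for gene bodies and 4.04% and 9.07% for promoters. Regions of IV that were kept one to one between the lists also held more summits at 180 min. Of 451 such regions, 20.6% had more sub-peaks at 180 min and 7.32% had fewer, while among 2819 regions elsewhere 169 had more and 383 (13.6%) had fewer. Their median width on IV was 504 bp at 180 min and 447 bp at 0 min, and elsewhere 426 bp at 180 min and 453 bp at 0 min. Taken region by region the change was smaller. The median difference in width, 180 min minus 0 min, was 13 bp on IV and -2 bp elsewhere.

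The unmatched sub-peaks of IV were spread over both arms and densest just right of the centromere. In the 50 kb right of CEN4, 15 of 36 sub-peaks were 180 min only (41.7%) and 0 of 21 were 0 min only, which allows a share of up to 14.3%. The same 50 kb of code 11 had 5 of 29 (17.2%) and 0 of 24. In the 50 kb to the left, 6 of 38 were 180 min only (15.8%) and 1 of 33 was 0 min only. Beyond 200 kb of CEN4 the 180 min only share was still 18.8% (16.1 to 21.8%), and in code 11 it was 6.28%.

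Gene-body sub-peaks called at 180 min in a region with no overlapping region at 0 min numbered 29 of 246 on IV. On the other 15 they numbered 21 of 1040, and 68 of 1221 there were called only at 0 min. The 4 strongest of each set are named here, a choice made after their values were seen. On IV they lay in DAS2 (IV 485894), KGD2, UBC13 and EAF1, with relative pileups at 180 min of 2.83, 2.02, 1.86 and 2.06. KGD2 encodes a subunit of alpha-ketoglutarate dehydrogenase, UBC13 a ubiquitin-conjugating enzyme of DNA damage tolerance, and EAF1 the scaffold of the NuA4 histone acetyltransferase. Off IV they lay in CMK1, a calmodulin-dependent kinase gene, MAE1, a malic enzyme gene, MCM7, which encodes a subunit of the replicative helicase, and ARG1 of arginine synthesis, with 2.27, 3.56, 2.22 and 2.74. Those called only at 0 min off IV lay in RCF2, SLX4, YAT2 and GPI12, with 3.01, 1.97, 2.15 and 1.83 at 0 min. On IV, 3 of 170 gene-body sub-peaks were without overlap and called only at 0 min. All 3 lay in 1 region (972164 to 972728) inside HSP78, which encodes a mitochondrial chaperone that untangles protein aggregates. Their relative pileups at 0 min were 1.69 to 1.74.

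Matched summits were compared by the log2 change of relative pileup, 180 min over 0 min, centred on the median of the 15 chromosomes other than IV. The 832 matched summits of IV were higher at 180 min by a median of 0.26 (SD over summits 0.16), a factor of 1.20, and 811 of them (97.5%) stood above 0. The local background recovered from the lists, which was never below the genome-wide value, was also higher on IV at 180 min. Its median log2 ratio, 180 min over 0 min, was 0.22 on IV, 0.52 within 50 kb of CEN4 and 0.00 on the other 15 chromosomes. On the authors' fold over that local background, centred in the same way, the median of IV was 0.02 and 465 of 832 summits (55.9%) stood above 0. Summit pileup and recovered local background of IV were thus both higher at 180 min. That background was above the genome-wide value at 77.6% of the IV summits at 180 min and 56.1% at 0 min. The lists do not show whether it includes reads of the summits themselves, so it is not a separate measure of the flanking DNA. The other 5166 had an SD of 0.12 around 0, and a typical counting error was 0.06. Gene-body summits of IV stood at 0.34 and promoter summits at 0.24. Weak summits, with a relative pileup under 2 at 0 min, stood at 0.33, and those of at least 4 at 0.23. At least 1.5-fold higher were 29 of the 832 on IV (3.49%) and 1 of the 5166 elsewhere (0.0194%). At least 1.5-fold lower were 0 on IV, which allows a share of up to 0.361%, and 4 elsewhere (0.0774%).

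**Figure D2:**
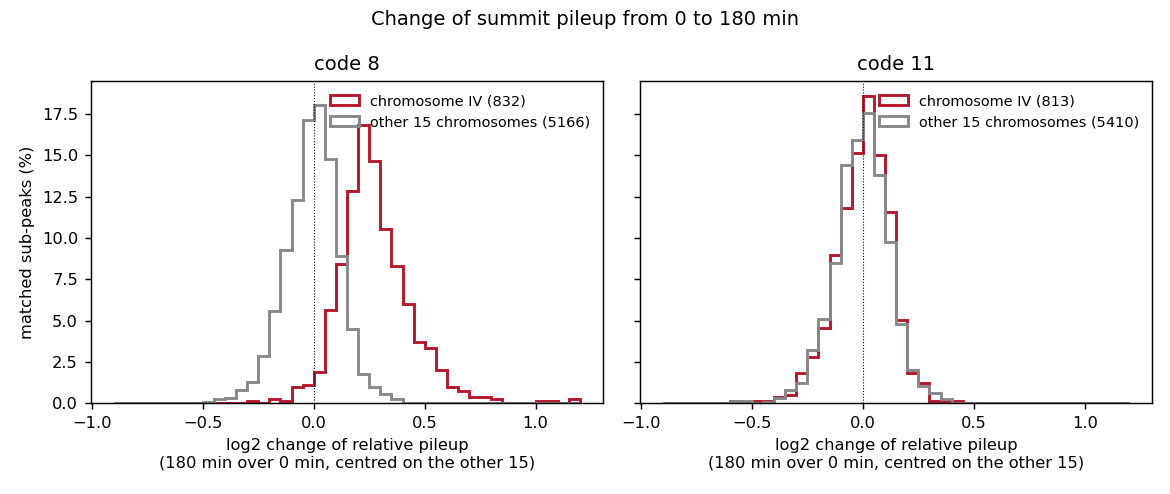
Distribution of the centred log2 change of relative summit pileup, 180 min over 0 min, in code 8 (left) and code 11 (right), in percent of matched sub-peaks per 0.05 bin. Chromosome IV (red) is centred near 0.26 in code 8 and near 0.01 in code 11, and the other 15 chromosomes (grey) near 0 in both.

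The 29 summits of IV past 1.5-fold on relative pileup comprised 16 of 145 in gene bodies, 9 in promoters (1.64% of 549) and 4 of 138 elsewhere. Of the 53 matched summits within 50 kb of CEN4, where the median change was 0.49, 14 were past it. On the authors' fold 5 of the 29 were also past 1.5-fold, and 0 of the 53 near CEN4 were. In code 11, 26 of the 29 summits had a matched pair at the same place, with a median change of -0.03 and a range of -0.44 to 0.30. Since the whole of IV was higher, each summit was also set against the median of the other summits within 25 kb. By that measure 5 of the 832 were at least 1.5-fold above their neighbours and 0 at least 1.5-fold below. The 5 were at TRR1, upstream of HO (2 summits), in GPD1 and in MSW1.

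**Figure D3:**
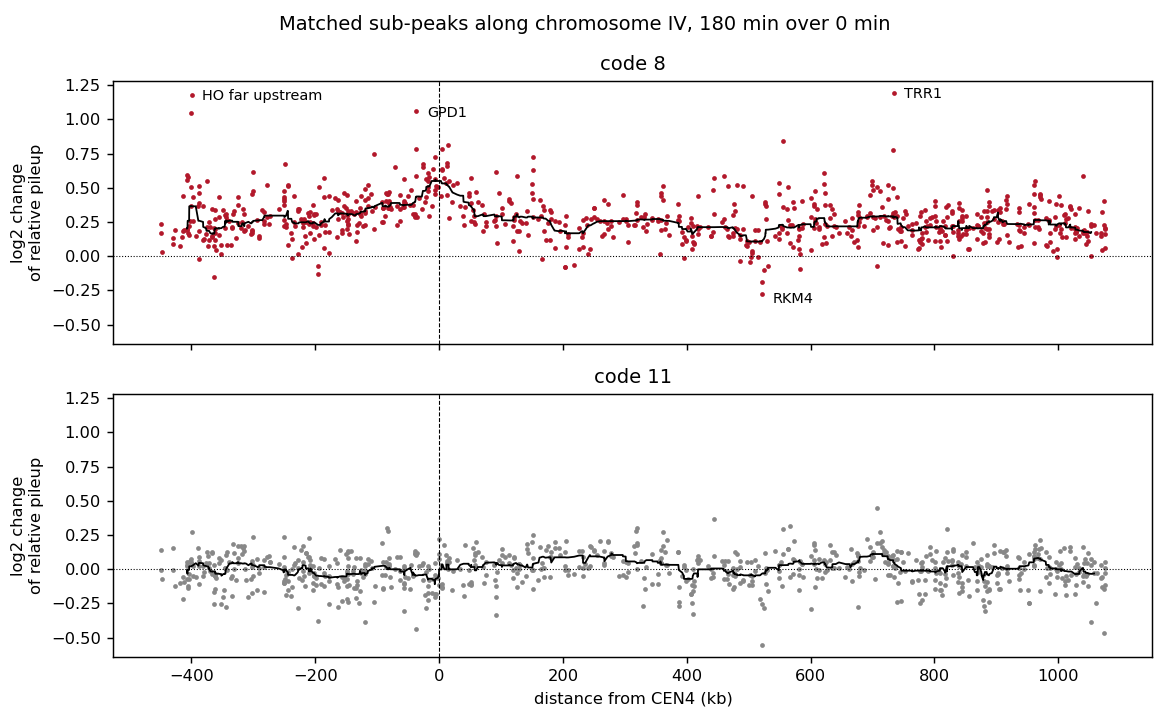
Centred log2 change of relative summit pileup, 180 min over 0 min, of each matched sub-peak of chromosome IV against its distance from CEN4 in kb, for code 8 (top) and code 11 (bottom). Black lines are running medians of 25 sub-peaks and the dashed line marks CEN4. In code 8 the line is highest at CEN4, and single summits at TRR1, GPD1 and far upstream of HO reach 1.06 to 1.19, while RKM4 is at -0.27.

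The highest change was inside TRR1 (YDR353W, IV 1183299 to 1184258), the gene of cytoplasmic thioredoxin reductase, which keeps thioredoxin reduced. The summit at 1183710, 411 bp into the gene, had a pileup of 2888 at 180 min and 1229 at 0 min, a relative pileup of 6.58 and 2.97. Its centred log2 change was 1.19 (1.10 to 1.29), 0.90 above its neighbourhood, and 0.91 on the authors' fold over local background. That summit of code 11 had 2.82 at 180 min and 2.86 at 0 min. A weaker summit 108 bp into TRR1 had 2.94 at 180 min and 1.77 at 0 min (change 0.78). The gene's own promoter summit had 5.90 at 180 min and 4.91 at 0 min, a change of 0.31 that is close to the 0.29 of its neighbourhood. At 180 min the summit in the gene was the higher of the 2, and at 0 min the promoter summit was.

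HO (YDL227C, IV 46271 to 48031) encodes the endonuclease of mating-type switching and is controlled from an unusually long upstream region that holds binding sites for cell-cycle regulators. The summit 2048 bp upstream of its start (IV 50079) had a pileup of 1302 at 180 min and 560 at 0 min, and a change of 1.18 (1.03 to 1.32). The summit 1115 bp upstream (IV 49146) had 1619 at 180 min and 764 at 0 min, a change of 1.04 (0.92 to 1.17). The summits between them, 1337 and 1772 bp upstream, were at 0.51 and 0.36, and the summit at the HO start itself was at 0.26, the same as the chromosome. On the authors' fold the 2 outer summits were at 0.81 and 0.75 and the start at -0.23. The 5 summits of code 11 were at 0.27, 0.05, 0.05, 0.08 and 0.06. In code 8 the highest changes thus stood at the nearest and the farthest of these upstream summits and not at the start of the gene.

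In GPD1 (YDL022W, IV 411825 to 413000), which encodes the glycerol-3-phosphate dehydrogenase of osmotic adaptation, the change was higher at each summit farther into the gene. The summits at 125, 516 and 756 bp had relative pileups of 5.36, 5.88 and 6.38 at 180 min and of 3.68, 3.53 and 3.16 at 0 min, with changes of 0.59, 0.78 and 1.06. The promoter summit, the highest matched promoter summit of IV, had 17.7 at 180 min and 14.9 at 0 min, a change of 0.30. Against local background the promoter was at -0.21 and the summits at 125, 516 and 756 bp were at 0.08, 0.28 and 0.55. On that unit none of them was past 1.5-fold, which is 0.58 on the log2 scale. GPD1 lies 37.2 kb from CEN4, where neighbouring summits were at 0.41. In code 11 the summit at 756 bp had 3.72 at 180 min and 3.38 at 0 min, and the summit at 125 bp had 3.08 at 180 min and 4.08 at 0 min. MSW1, the mitochondrial tryptophanyl-tRNA synthetase gene, had a summit near its end (IV 1005113) with 2.83 at 180 min and 1.63 at 0 min, a change of 0.84, where code 11 had 0.30.

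SED1 (IV 600793 to 601809), which encodes a major structural glycoprotein of the cell wall, was above the level of the chromosome along most of its length. Its promoter summit had 6.11 at 180 min and 4.38 at 0 min (change 0.53), the gene-body summits at 125 and 420 bp were at 0.63 and 0.72, and the one at 821 bp was at 0.28, or -0.11 on the authors' fold. In code 11 these 4 summits were at 0.00, -0.14, 0.08 and -0.01.

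Among promoters of IV with a relative pileup of at least 2 in either list, the highest changes were at ATP16, TRP1, ERP3, SIR2 and CDC7, from 0.66 to 0.72. ATP16 lies 6.64 kb and SIR2 71.2 kb from CEN4, and the other 3 lie between these distances. ATP16, the delta subunit gene of the mitochondrial ATP synthase, had 2.20 at 180 min and 1.38 at 0 min. TRP1 of tryptophan synthesis had a summit 74 bp upstream of its start with 4.85 at 180 min and 3.13 at 0 min. ERP3, of the p24 cargo receptor family, and CDC7, the kinase that fires replication origins, share a region and had 3.73 and 3.93 at 180 min and 2.42 and 2.57 at 0 min. SIR2, the histone deacetylase of silent chromatin, had 2.75 at 180 min and 1.80 at 0 min. On the authors' fold over local background the centred change was 0.02 at TRP1, 0.09 at ATP16, 0.14 at CDC7, 0.21 at ERP3 and 0.62 at SIR2. In code 11 the 5 changes ran from -0.21 to 0.05.

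The lowest promoter summits of IV formed a cluster. RKM4, a lysine methyltransferase gene of the ribosome, had a summit at IV 971606 with 3.25 at 180 min and 4.06 at 0 min, a change of -0.27 (-0.38 to -0.17). A second RKM4 summit, at 971844, was at -0.19, and the promoter of the neighbouring HSP78 at -0.10, with 5.18 at 180 min and 5.73 at 0 min. Counting the 0 min only region inside HSP78, every summit called between 971459 and 974719 was lower relative to the other chromosomes or absent at 180 min. The next summits on the right, around SWM1, were higher by 0.27 to 0.40. The same 3 promoter summits of code 11 were at -0.25, -0.55 and -0.29, so at this place both codes were lower at 180 min. ZIP1, which encodes a synaptonemal complex protein of meiosis, and BMH2, a 14-3-3 protein gene, were at -0.09 and -0.08 in code 8 and at 0.05 and 0.02 in code 11.

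Off chromosome IV no promoter summit was past 1.5-fold in either direction, 0 of 3276, which allows a share of up to 0.0916%. Past 0.32 on the log2 scale, 10 were higher (0.305%) and 22 lower (0.672%), where 147 of the 549 promoter summits of IV were higher (26.8%) and 0 lower. The 11 highest changes among those with a relative pileup of at least 2 in either list ran from 0.29 to 0.43, factors of 1.22 to 1.35, and the 12 lowest from -0.45 to -0.36, factors of 0.733 to 0.778.

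The highest was ECM4, which encodes a glutathione transferase (YKR076W, XI 582283 to 583395), with 2.41 at 180 min and 1.84 at 0 min, a change of 0.43 (0.30 to 0.57). ASF1, the histone H3-H4 chaperone gene, had 4.38 at 180 min and 3.46 at 0 min, a change of 0.39, where code 11 was at -0.18. YHR054C followed at 0.37. It belongs to the repeated CUP1 locus, where reads of near-identical copies may be shared, so its value is uncertain. ATG19, the cargo receptor gene of the cytoplasm-to-vacuole pathway, had 3.29 at 180 min and 2.68 at 0 min (change 0.35). The divergent pair PXA1, a peroxisomal fatty acid transporter gene, and PPT2 had 0.34, LAF1 0.34 and ESL2 0.33. CDC25, which encodes the exchange factor of Ras, and MLO127 both had 0.31, and DIP2 of ribosomal RNA processing had 0.30. The pair ASG1 and FKH1, a forkhead transcription factor gene, had 0.29. In code 11, 8 of these 11 summits were above 0 and 3 below, from -0.18 at ASF1 to 0.30 at ECM4.

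The lowest were UBP9, a ubiquitin protease gene (V 355466 to 357730), with 3.44 at 180 min and 4.85 at 0 min, and AIM26, with 4.67 at 180 min and 6.57 at 0 min, both at -0.45. AGA1, the anchor of the a-agglutinin that joins mating cells, had 1.54 at 180 min and 2.14 at 0 min (change -0.43). HPF1, a cell wall mannoprotein gene, had 2.21 at 180 min and 3.07 at 0 min, and CPR6, an Hsp90-binding cyclophilin gene, 2.60 at 180 min and 3.61 at 0 min, both also at -0.43. HIS4 of histidine synthesis (III 65934 to 68333) had 5.27 at 180 min and 7.20 at 0 min, a change of -0.40 (-0.48 to -0.33). PAU4, of a large family of near-identical seripauperin genes and therefore uncertain, had -0.41, and CNN1, a kinetochore protein gene, -0.40. YDC1, a ceramidase gene, and YHL008C had -0.37, as did BSP1 of actin patches. The summit shared by IME4, an RNA methyltransferase gene, and HOS2, a histone deacetylase gene, had -0.36. In code 11, 10 of the 11 summits with a pair were below 0 as well, from -0.11 to -0.56. HIS4 was the exception at 0.14, with 7.96 at 180 min and 7.06 at 0 min. On the authors' fold over local background the values of code 8 ran from 0.19 at ASF1 to 0.40 at ECM4. Those of the lowest ran from -0.45 at CPR6 to -0.19 at BSP1, with HIS4 at -0.22. All 11 of the highest and 12 of the lowest summits kept their sign. That fold uses the same pileup, and off IV the background changed little (log2 ratio -0.15 to 0.05, 5th to 95th percentile). Keeping the sign is therefore no independent check.

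**Figure D4:**
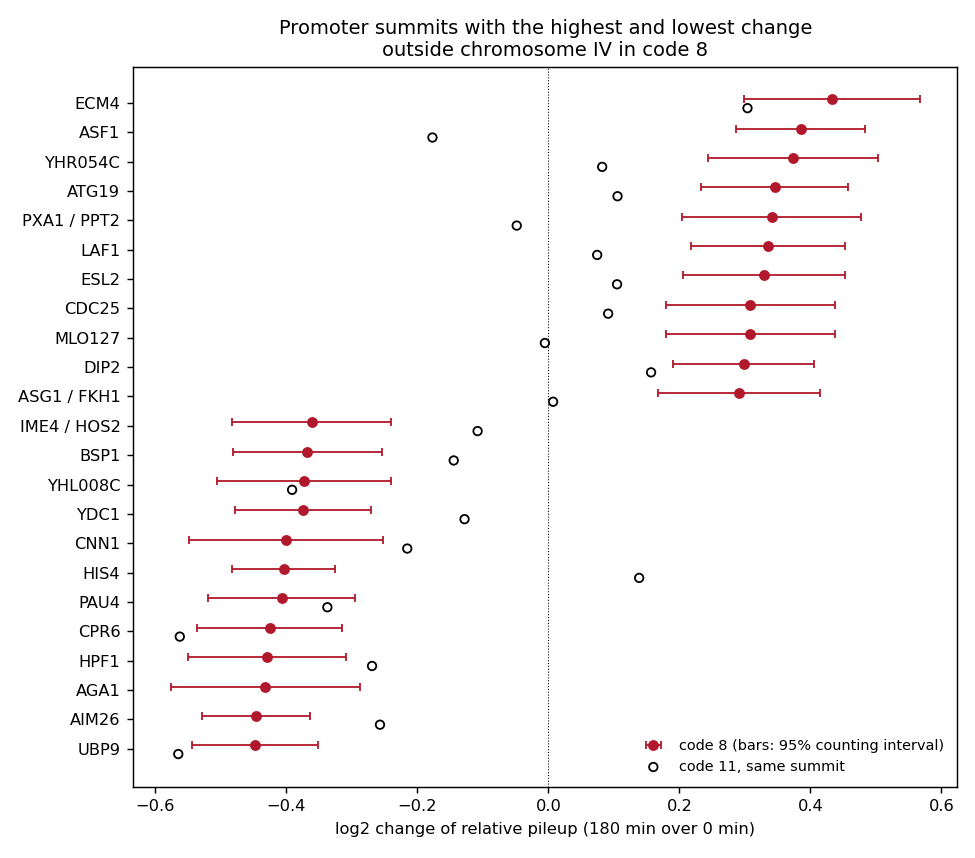
Centred log2 change of relative summit pileup, 180 min over 0 min, at the 11 highest and 12 lowest promoter summits outside chromosome IV in code 8 (red, bars are 95% counting intervals) and at the matched summit of code 11 (open circles, AGA1 has none). Red points run from 0.29 to 0.43 and from -0.45 to -0.36. All circles but HIS4 lie left of 0 in the lower group, and 8 of 11 lie right of 0 in the upper group.

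The 5 summits past 1.5-fold off IV were not at promoters. TOP3, the topoisomerase III gene, had a gene-body summit (XII 611350) with 4.67 at 180 min and 3.05 at 0 min, a change of 0.66 (code 11: 0.07). By the authors' fold it was at 0.40, under 1.5-fold, and 0 of the 5166 summits off IV were higher past 1.5-fold on that unit. An intergenic summit 641 bp upstream of BSC5 (XIV 763233) had 1.84 at 180 min and 3.42 at 0 min, a change of -0.84, and one 493 bp upstream of TPH3 (X 405095) had 2.29 at 180 min and 3.93 at 0 min, a change of -0.73. Both were lower in code 11 too, by -0.55 and -0.58. The other 2 lay beside the centromere of chromosome I, inside TFC3, which encodes the largest subunit of the RNA polymerase III factor TFIIIC.

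At that centromere the lists of code 8 differed in the number of summits as well. Within 1.5 kb of CEN1 there were 3 summits at 180 min and 5 at 0 min. The summits at I 150603 and 150885 had relative pileups of 1.19 and 1.22 at 180 min and 1.86 and 2.06 at 0 min, changes of -0.60 and -0.70. The 0 min summits at 151068 and at 151684 had 1.69 and 1.92 and no partner. The second lay in the gap, 27 bp from its midpoint, and whether it lies on the centromere itself is not known here. The TFC3 promoter summit, 460 bp from the midpoint, had 2.98 at 180 min and 3.60 at 0 min (change -0.23). Code 11 had only that promoter summit, with 2.20 at 180 min and 2.22 at 0 min. Summits here other than the promoter were thus called in code 8 and not in code 11, and in code 8 they were fewer and lower at 180 min. Over all 158 matched summits within 10 kb of their own centromere off IV, the median change was 0.05 and ran from -0.70 to 0.35.

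Sites near RNA genes and chromosome ends lay close to 0 off IV. The median change was 0.01 in 308 summits within 250 bp of a tRNA gene, -0.02 in 86 near a small nucleolar RNA gene and -0.03 in 269 within 25 kb of a chromosome end. On IV, 36 summits near tRNA genes had 0.20, below the 0.26 of the chromosome.

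Gene lists were described by the strongest matched promoter summit of each gene. Off IV, 0 of 3220 genes were past 1.5-fold in either direction, and past 0.32 on the log2 scale 10 were higher (0.311%) and 15 lower (0.466%). Across the 29 lists, ARN1 of siderophore uptake (0.35) and ATG19 were the members past 0.32 upwards, and AGA1, HIS4 and GAL4, the activator of galactose genes (-0.32), downwards. The median of all 3220 genes was 0.00, with 1615 of them above 0, and most list medians lay close to it. The sign also varied with strength. Of matched summits off IV, 57.2% stood above 0 at a relative pileup of at least 4 at 0 min. The share was 43.9% at 2 to 4 and 49.8% under 2. List values were not adjusted for this. A uniform shift of the centre by 0.02 (to the median of all matched summits) or the change to the authors' fold moved 9 of the 29 medians across 0, and no direction is given for those.

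The stress and nutrient lists lay on both sides of the median. All 12 general stress genes measured off IV were above 0, with a median of 0.07, from HOR7 at 0.01 (-0.05 on the authors' fold) to GLC3, the glycogen branching enzyme, at 0.17. Phosphate genes had 0.12 in 7 genes, 4 of them above 0, and 0.04 on the authors' fold. They ran from SPL2, an inhibitor of low-affinity phosphate uptake, at -0.07 to PHO5, the secreted acid phosphatase, at 0.31 (1.88 at 180 min, 1.57 at 0 min). Iron genes had 0.09 in 9 genes, from ENB1 at -0.22 to ARN1. The 3 measured genes of the hexose transport list ran from MIG2, which encodes a transcriptional repressor and not a transporter, at 0.00 to HXT1, a low-affinity glucose transporter, at 0.24. Ribosome biogenesis genes had 0.05 in 18, with NSR1, nucleolin, highest at 0.28, and 103 ribosomal protein genes had 0.02, from RPS27A at -0.19 to RPS3 at 0.16. Heat shock genes had 0.04 in 11, 6 of them above 0, from SSA4 at -0.20 to HSP60 at 0.19. Galactose genes had -0.06, with 5 of 7 below 0, autophagy genes -0.03 in 22, and amino acid synthesis genes -0.0050 in 27, with 11 above 0.

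Cell-cycle and chromosome lists lay on either side. The mitotic CLB2 cluster had 0.08 in 9 genes, with CDC5, the polo kinase, highest at 0.20 and SPO12 lowest at -0.14. Daughter-cell and early G1 genes had 0.03 in 6. Kinetochore and spindle checkpoint genes had -0.02 in 14, from MAD1 of the spindle checkpoint at -0.18 to NUF2 at 0.11. Condensin, cohesin and Smc5/6 genes had -0.09 in 6, with 5 of 6 below 0, from NSE1 at -0.16 to PDS5, a cohesin regulator, at 0.12. DNA damage genes had 0.05 in 10, with RNR4, of ribonucleotide reductase, highest at 0.15. Pheromone response genes had -0.07, with 12 of 14 below 0, from AGA1 to KSS1 at 0.17, and the haploid-specific genes -0.06 in 4.

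Members on IV stood at the level of the chromosome in most lists. The 17 ribosomal protein genes of IV had a median of 0.26, from RPS13 at 0.03 to RPL4B at 0.52, and the 4 proteasome genes 0.31. MCD1, the cohesin subunit, was at 0.51 and DAD1, a kinetochore protein of the DASH complex, at 0.53, 5.36 kb and 29.1 kb from CEN4. By the authors' fold DAD1 was at 0.50 and MCD1 was at -0.10. DUN1, a DNA damage checkpoint kinase, was at 0.42, with 2.37 at 180 min and 1.82 at 0 min. The heat shock genes HSP78 and HSP42 were at -0.10 and 0.01, MFA1, an a-factor gene, at 0.07, and RGT2, a glucose sensor, at -0.01, all under the 0.23 median of 524 genes of IV. By the authors' fold HSP42 was at -0.21, MFA1 at -0.13 and RPS13 at -0.30.

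**Figure D5:**
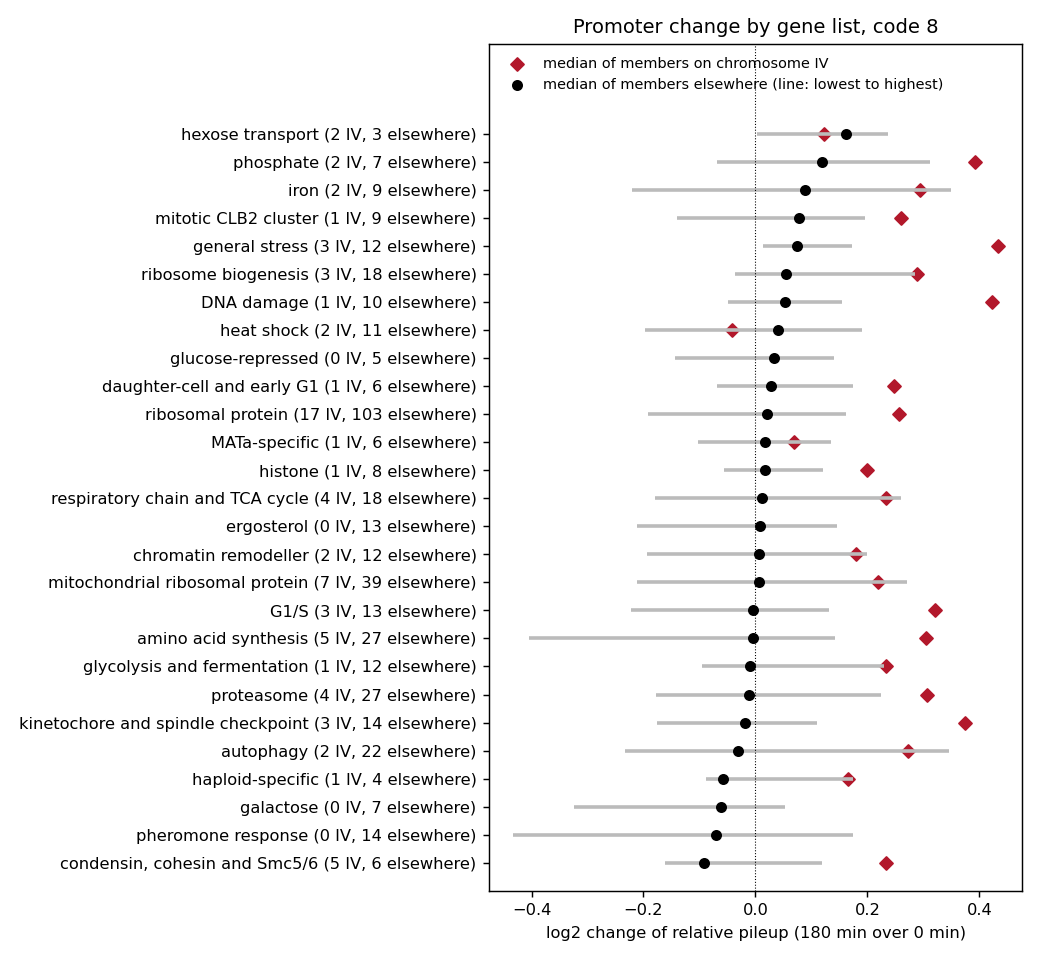
Centred log2 change of promoter relative pileup, 180 min over 0 min, for gene lists with at least 3 members measured off chromosome IV in code 8. Red diamonds are medians of members on IV, black dots medians of members elsewhere and grey lines their lowest to highest member. The dots lie between -0.09 and 0.16, and all diamonds but heat shock are right of 0.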

How the data were processed

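Spheroplasts were treated with Tn5 and the libraries PCR-amplified, per the labels' protocols. The submitters' processing notes name MACS2 2.2.4, Bowtie2 2.3.4.3 and the sacCer3 build. Pooling of the 2 experiments of a group is not stated. Each deposited list holds a score (10 times the -log10 p, truncated), the authors' fold enrichment over local background, and -log10 of the p-value and q-value. Summit pileup and background were solved from the deposited fold, (pileup + 1)/(background + 1), and Poisson p. In code 8, 99.8% of pileups were whole within 0.05. Relative pileup is pileup over the genome-wide background. Recovery and matching were run on simulated data. The simulated fold and p came from the same formulas that the recovery inverts, so this is no independent check of the pileups. Genes came from a RefSeq R64 table, and 29 gene lists were used. Genes named are the 12 highest and lowest promoter summits off IV (1 of the highest is not reported here) and the 5 on IV with relative pileup of at least 2, the 8 strongest unmatched summits per list, the extreme members of each list and the cell type markers; further genes were named after their values were seen. Members and lists were chosen with earlier results of these data known. Python 3.11.15, numpy 2.4.6, pandas 2.3.3 and scipy 1.17.1 were used.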

Additional observations from a re-analysis of the deposited data

Results flagged for a closer look

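Chromosome IV had 1038 sub-peaks at 180 min and 892 at 0 min in code 8, a ratio of 1.16, and 870 at 180 min and 917 at 0 min in code 11, a ratio of 0.949. The ratio over the other 15 chromosomes was 0.933 in code 8 and 0.937 in code 11, so chromosome IV of code 11 was close to the rest of its list. The difference between the codes on IV was not tested because each code has 1 list per time.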

How the results depend on the processing

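No paired analysis was possible because the lists carry no replicate number, and no experiment could be left out for the same reason. No value listed here changed sign, and matching within 25 or 100 bp, lists of equal length and scaling by all matched summits moved no count by over 1.5 times and no difference of shares beyond its counting interval. Matching within 25 bp gave 5839 matched and 749 and 999 unmatched sub-peaks at 180 and 0 min, and lists of equal length 5910, 678 and 678. The values reported are 5998 matched, 590 and 840 unmatched sub-peaks at 180 and 0 min, gene-body shares 28.5 and 27.0 points above the matched share, and IV 12.9 points above and 6.39 points below the other 15 (-6.39). With regions merged to the strongest summit they were 3298, 297 and 301, 21.0 and 19.3 points, and 6.28 and -1.55 points, with 4 in place of 9 promoters higher on IV. Counting only regions without overlap gave 169 and 213 sub-peaks and 4.85 and -2.55 points. The gene-body differences were 24.0 and 21.4 points at -log10 q of at least 10, 13.7 and 13.4 with a promoter window of 1000 bp, and 33.3 and 34.1 with 250 and 50 bp. The 1000 bp window gave 18 promoter summits higher on IV and 2 lower elsewhere. On the authors' fold the median change of IV was 0.024 (0.26 on relative pileup) and 1 promoter was higher. At a threshold of 0.32 (log2), 147 were higher on IV, 10 higher and 22 lower elsewhere, and at 2-fold 0 were higher on IV. The cause of these shifts was not tested.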
